A study of Homo sapiens with 2 samples.

Results

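The 227 peaks described here lay in 6 genes of the family of PI3K-related giant kinases, PRKDC, SMG1, ATM, TRRAP, ATR and MTOR, and made up 0.982% of the 23111 peaks on chromosomes 1 to 22, X and Y. RNA bound to the nuclear protein HNRNPC was pulled down with 5 µg of antibody from lysates of A549, a line grown from a human lung tumour of the non-small cell type, and sequenced (RIP-seq). The series has 2 samples, 1 library of the immunoprecipitate (IP) and 1 input library made without antibody, from cells of the same line with no treatment named in the labels. A peak was counted for a gene when its summit, the base of highest enrichment, lay between the first and last base of the gene in RefSeq. The members were selected on the peak calls of this same list, with the high numbers and folds in PRKDC and SMG1 known, so the numbers of peaks and their folds describe the choice and are given with no test. With 1 IP library there is no replicate, and no value has an error between samples.

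Kinases of this family are very large proteins that share a catalytic domain related to that of the lipid kinase PI3K. ATM, ATR and PRKDC (the catalytic subunit of DNA-dependent protein kinase) answer DNA damage, SMG1 acts in the decay of mRNAs with a premature stop codon, and MTOR controls growth according to nutrients. TRRAP has lost kinase activity and serves as a scaffold of histone acetyltransferase complexes. HNRNPC binds runs of U in nuclear RNA, much of it in introns, and has also been described as a reader of N6-methyladenosine, which is the subject of the series.

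All 6 genes carried peaks, as did 18.4% of the 20037 protein-coding genes, but they differed widely in number. PRKDC (NCBI gene 5591, chromosome 8, 47773111 to 47960136 of human build 38) had 71 peaks over a span of 187.0 kb. SMG1 (gene 23049, chromosome 16, 18804860 to 18926408) had 57 over 121.5 kb. ATM (gene 472, chromosome 11, 108223067 to 108369102) had 36 over 146.0 kb, and TRRAP (gene 8295, chromosome 7, 98878532 to 99013241) had 30 over 134.7 kb. ATR (gene 545, chromosome 3, 142449235 to 142578733) had 24 over 129.5 kb, and MTOR (gene 2475, chromosome 1, 11106535 to 11262551) had 9 over 156.0 kb. These spans are of similar length, and the number of peaks did not follow it, since MTOR is longer than SMG1. Per 100 kb of span the order was SMG1 with 46.9 peaks, PRKDC with 38.0, ATM with 24.7, TRRAP with 22.3, ATR with 18.5 and MTOR with 5.77. SMG1 and PRKDC had the highest density among the 2684 protein-coding genes at least as long as SMG1. HUWE1, which encodes a giant ubiquitin ligase, followed with 37.5. Among the 921 protein-coding genes of any length with 9 or more peaks, SMG1 ranked 23 by density and PRKDC ranked 50. Of the 1154 protein-coding genes within the span range of the 6, 41.9% had a peak, and the median of those with a peak was 7. In that range PRKDC ranked 1 by number, SMG1 ranked 3, ATM ranked 7, TRRAP ranked 13, ATR ranked 30 and MTOR ranked 187. The spans of SMG1 and PRKDC set the lower and upper limits of the range, so PRKDC was ranked by number as its longest gene. Only PDE4D, with 88 peaks over 1553091 bp, had more peaks than PRKDC. Expression was not measured in the peak list, so a gene with more peaks cannot be told apart from a gene with more RNA.

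**Figure D1:**
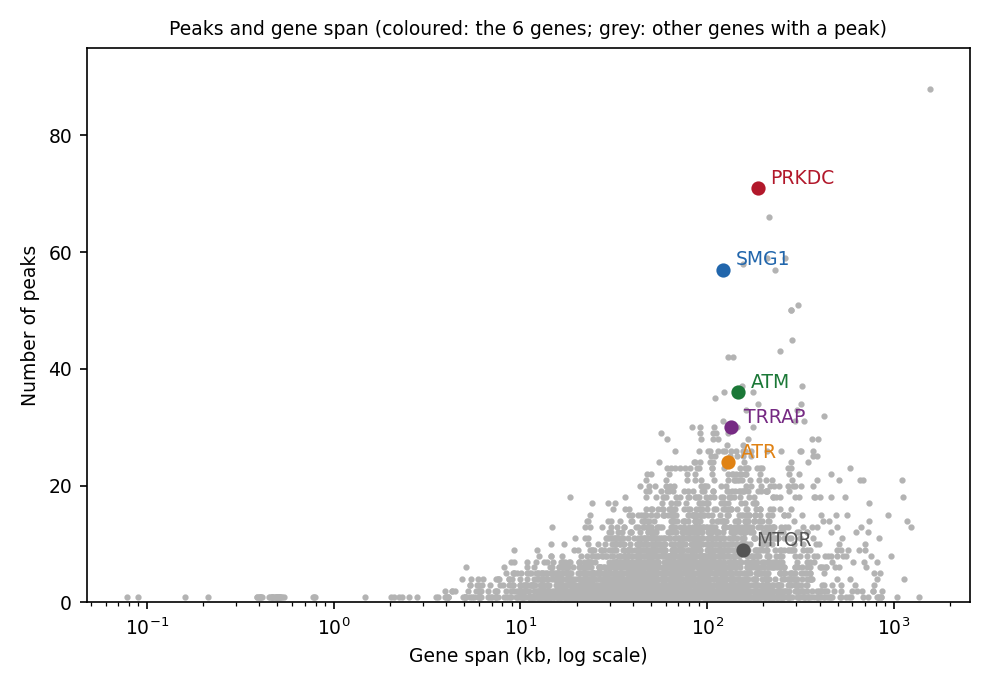
Number of HNRNPC peaks (vertical axis) against gene span in kb (horizontal axis, log scale) for protein-coding genes with a peak, with 1 point per gene. PRKDC with 71 peaks and SMG1 with 57 stand at the upper edge of genes of their length, whereas MTOR with 9 lies within the cloud.

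Peaks covered 10.3% of the SMG1 span and 6.45% of the PRKDC span, against 3.02% in ATR, 2.91% in TRRAP, 2.77% in ATM and 0.622% in MTOR. SMG1 and PRKDC also had the wider peaks, with median widths of 177 bp and 163 bp. The medians were 115.5 bp in TRRAP, 113.5 bp in ATR, 102.5 bp in ATM and 56 bp in MTOR. The widest peak of the set, 887 bp at chromosome 3, 142562218 to 142563104, belonged to ATR and had a fold of only 6.24. In SMG1 the widest, 621 bp at 18838058 to 18838678, had a fold of 7.46. Widths at or above 200 bp were found in 22 peaks of PRKDC and 22 of SMG1, but in 5 of ATR, 4 of TRRAP, 3 of ATM and 1 of MTOR.

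Fold enrichment, the authors' ratio of IP to background at the summit, was highest in PRKDC. Its 71 peaks had a median fold of 10.6 (lowest 3.31, highest 15.95), and 40 of them reached a fold of 10 or more, which 8.65% of all peaks did. In SMG1 the median was 7.70 (4.25 to 11.6) and 6 of 57 reached 10. The 99 peaks of the other 4 genes included 0 at that level. Their median folds were 5.76 in ATM (4.30 to 8.19), 5.76 in TRRAP (3.82 to 8.67), 5.27 in ATR (4.30 to 7.22) and 4.79 in MTOR (4.30 to 6.73). Across the list the median fold was 5.76, so PRKDC and SMG1 lay above it, ATM and TRRAP at it, and ATR and MTOR below it.

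The strongest PRKDC peaks were 147 bp at 47933938 to 47934084 and 206 bp at 47881883 to 47882088, both with a fold of 15.95 at a −log10 q value of 25.6, at rank 149 of the list by fold. They lie 26.1 kb and 78.2 kb from the 5′ end of the gene, so the height was not reached at a single place. In SMG1 the highest fold, 11.6 at a −log10 q value of 15.8, was at 18837291 to 18837465, 89.1 kb from the 5′ end. The highest ATM peak, 72 bp at 108293384 to 108293455, had 8.19, and the highest TRRAP peak, 92 bp at 98967038 to 98967129, had 8.67. In ATR the highest was 7.22 at 142566143 to 142566250, and in MTOR 6.73 at 11247661 to 11248084, which was also its widest peak with 424 bp.

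Reads behind each fold could be worked back from the deposited values. The authors' tool list names MACS2, which writes fold as (IP + 1)/(control + 1) and takes p from a Poisson distribution with the control level as its mean. With IP reads multiplied by 0.535, the fold and p of each of the 23148 peaks matched a whole number of IP reads to within 0.001 in −log10 p, and 23102 peaks, among them all 227 of the 6 genes, had 1 solution. The lowest control level, 0.103, is called the floor here. Levels of 1 and 2 also recurred and are read as whole control reads over the summit. What the control was is not given in the sources used here, and the numbers are read counts that may hold PCR copies.

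IP reads at the summit gave nearly the same order of genes as fold. PRKDC summits had a median of 24 reads (10 to 32), SMG1 summits 16 (9 to 27), ATM summits 10 (7 to 15), TRRAP summits 10 (6 to 16), ATR summits 9 (7 to 13) and MTOR summits 8 (7 to 12). The range of PRKDC overlapped that of each other gene, as did that of SMG1, and ATM, TRRAP, ATR and MTOR occupied nearly the same range. All peaks outside the 6 genes had a median of 15 reads, with quartiles of 10 and 21. The 95% exact Poisson interval of 31 reads, the number at the strongest PRKDC peaks, is 21.1 to 44.0, and that of 15 reads at the strongest ATM peak is 8.40 to 24.7. The intervals cover counting error only. Of the 71 PRKDC summits, 61 had 20 reads or more, as did 9 of 57 in SMG1 and 0 of 99 in the other 4 genes. In the whole list 30.3% of summits did.

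**Figure D2:**
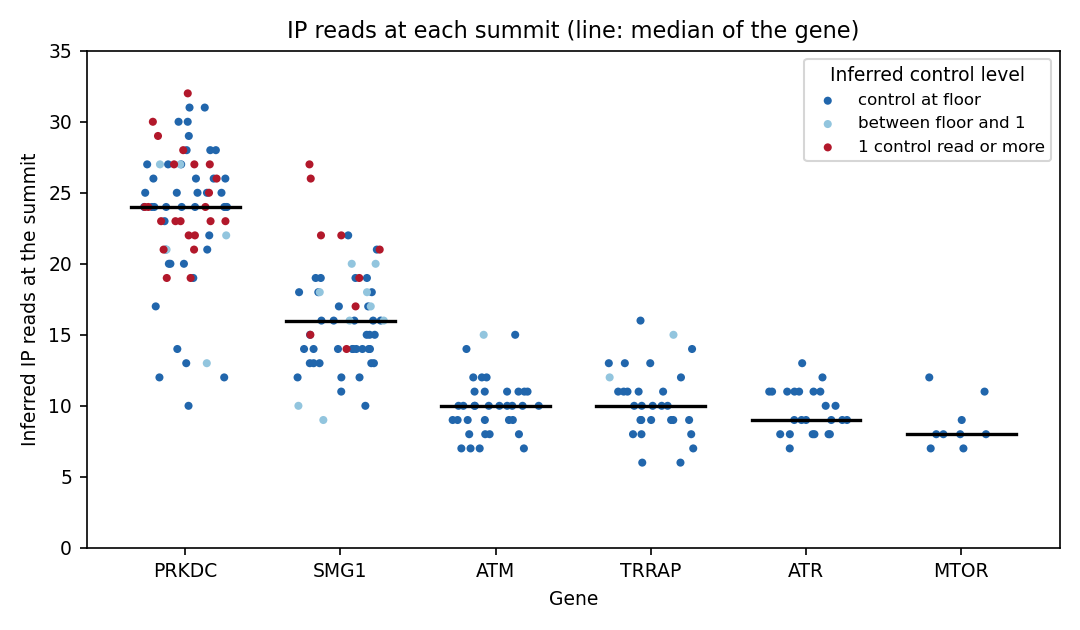
Inferred IP reads at the summit (vertical axis, reads) for each peak of the 6 genes, with 1 point per peak, coloured by the inferred control level, and the median of each gene as a line. PRKDC centres on 24 reads and SMG1 on 16, the other 4 genes lie between 6 and 16 reads, and points with 1 control read or more occur in PRKDC and SMG1.

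The control was at its floor for most of these peaks, 178 of 227 (78.4%), against 47.2% of the peaks outside the 6 genes. This held for 24 of 24 peaks in ATR, 9 of 9 in MTOR, 35 of 36 in ATM and 28 of 30 in TRRAP, but for 43 of 71 in PRKDC and 39 of 57 in SMG1. Control reads of 1 or more were inferred at 23 PRKDC summits and 9 SMG1 summits, and at 0 summits of the other 4 genes. That absence sits beside a limit of the peak calls. In the whole list the lowest number of IP reads with a peak was 6 at the control floor, 14 at 1 control read and 19 at 2. Only 6 of the 99 summits in ATM, TRRAP, ATR and MTOR had 14 reads or more, whereas 66 of 71 in PRKDC and 45 of 57 in SMG1 did. Few summits of those 4 genes thus had as many reads as any peak called beside a control read.

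Within PRKDC the folds fell into steps by inferred control level. That level was worked back from fold and p, so a lower fold at a higher level with similar IP reads follows from the formula. The 43 peaks at the floor had a median fold of 12.6 with a median of 24 IP reads. At 1 control read there were 13 peaks with a median fold of 6.93, again with 24 IP reads. At 2 control reads there were 9 peaks with a median fold of 4.44 and 23 IP reads. The IP reads at 1 and 2 control reads are bounded below by the limit of the peak calls given above. The peak with 4 control reads, 65 bp at 47785187 to 47785251, had 29 IP reads and the lowest fold of the gene, 3.31, at rank 22736 of the list. Conversely, the most IP reads in PRKDC, 32, stood at 47799240 to 47799386 with 2 control reads and a fold of only 6.05. Fold and IP reads thus ranked the peaks of this gene differently. Among the 921 protein-coding genes with 9 or more peaks, PRKDC ranked 11 by median fold and 153 by median IP reads. SMG1 ranked 101 by median fold and 417 by median IP reads.

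The steps were not spread evenly along PRKDC. The gene is transcribed towards lower coordinates, which is background knowledge, as is the direction of TRRAP towards higher coordinates. For the other 4 genes the RefSeq promoter table gives the strand. When the span was cut into 3 equal parts from the 5′ end, the parts held 26, 28 and 17 peaks. Median IP reads were 24 in each part, with the lowest at 10, 17 and 19, while the median fold was 10.6, 12.6 and 6.12. Control reads of 1 or more were inferred at 4, 5 and 14 summits in the same order, so in the part nearest the 3′ end only 2 of 17 summits had the control at its floor. In the whole list no peak had fewer than 14 IP reads at 1 control read or 19 at 2. The lowest numbers and the medians of IP reads are bounded by that limit, so they do not show an even IP signal along the gene. The last 12.1 kb held no summit.

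**Figure D3:**
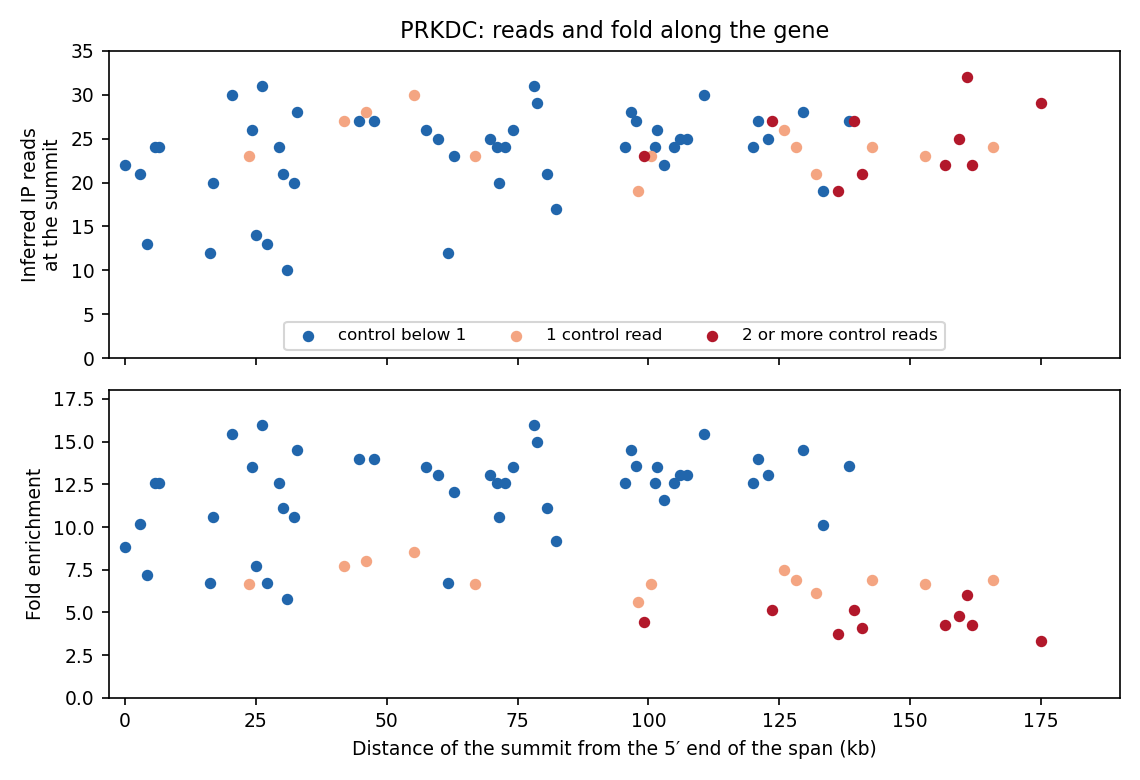
Inferred IP reads (upper panel, reads) and fold enrichment (lower panel) at the 71 PRKDC summits against their distance from the 5′ end of the span in kb, coloured by inferred control reads. IP reads have a median of 24 in each of the 3 parts of the gene, where peaks beside control reads needed more IP reads to be called. Fold is lower where control reads were inferred, mostly towards the 3′ end, which follows from the formula used to infer them.

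SMG1 showed another layout. A single peak lay at its 5′ end, and the next summit followed 29.5 kb further on, which was the longest interval between neighbouring summits in the 6 genes. From there the peaks were dense, with a median distance of 1.17 kb between neighbours, against 1.51 kb in PRKDC, 1.89 kb in TRRAP, 1.99 kb in ATM, 2.40 kb in ATR and 7.33 kb in MTOR. The 3 equal parts of SMG1 held 5, 30 and 22 peaks, with median IP reads of 14, 14 and 18. Of its 9 summits with a control read or more, 7 lay in the part nearest the 3′ end, where PRKDC also had most of its own. The median of 18 IP reads in that part of SMG1 is subject to the same limit of the peak calls. The last summit, in a peak with a fold of 4.26 at 18806976 to 18807141, lay 2.12 kb before the end of the span. Beyond that end the next peak of the list lay 3.37 kb away with a fold of 7.29.

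Peaks of ATR and MTOR lay towards the 5′ end. In ATR 16 of 24 peaks fell in the first of 3 equal parts of the span, 7 in the middle and 1 in the last, and the final 36.0 kb held none. All 9 MTOR peaks lay within 63.3 kb of the 5′ end, and the remaining 92.7 kb of the gene held none. In the first 50% of the span, these counts came to 19 of 24 for ATR (79.2%, 95% exact Clopper-Pearson interval 57.8 to 92.9%) and 9 of 9 for MTOR (66.4 to 100%). PRKDC had 37 of 71 there (52.1%, 39.9 to 64.1%), TRRAP 16 of 30 (53.3%, 34.3 to 71.7%), ATM 19 of 36 (52.8%, 35.5 to 69.6%) and SMG1 21 of 57 (36.8%, 24.4 to 50.7%). The intervals cover counting error only and treat neighbouring peaks as independent, which they need not be. The matching share over other genes was not examined, so whether such a lean is particular to ATR and MTOR is not known. A stretch without a peak says only that no summit there passed the threshold.

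In TRRAP a peak at the 5′ end was followed by 24.9 kb without a summit, then by 29 peaks up to 98.5 kb, after which the last 36.3 kb held none. ATM peaks were spread from 4.75 kb to 120.2 kb, and a lone peak of fold 5.76 at 108366600 to 108366739 followed after 23.5 kb, 2.39 kb before the 3′ end. That ATM summit was the only one of the gene with the control above its floor, and its 15 IP reads equalled the highest number in ATM. Over 60.6 kb towards its 3′ end ATM shares its span with another protein-coding gene, C11orf65. Of the 36 ATM summits 13 lay in the shared stretch (21.5 per 100 kb) and 23 outside it (26.9 per 100 kb), with a median fold of 5.76 in both. The deposited peaks carry no strand, so these 13 cannot be given to ATM alone. C11orf65 had 0 further summits outside ATM. The lncRNA gene LOC105375818 shared 2 summits with PRKDC, and SMG1-DT, a lncRNA gene at the 5′ end of SMG1, shared 1 with SMG1. ANGPTL7 and MTOR-AS1, which lie within the MTOR span, held 0.

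**Figure D4:**
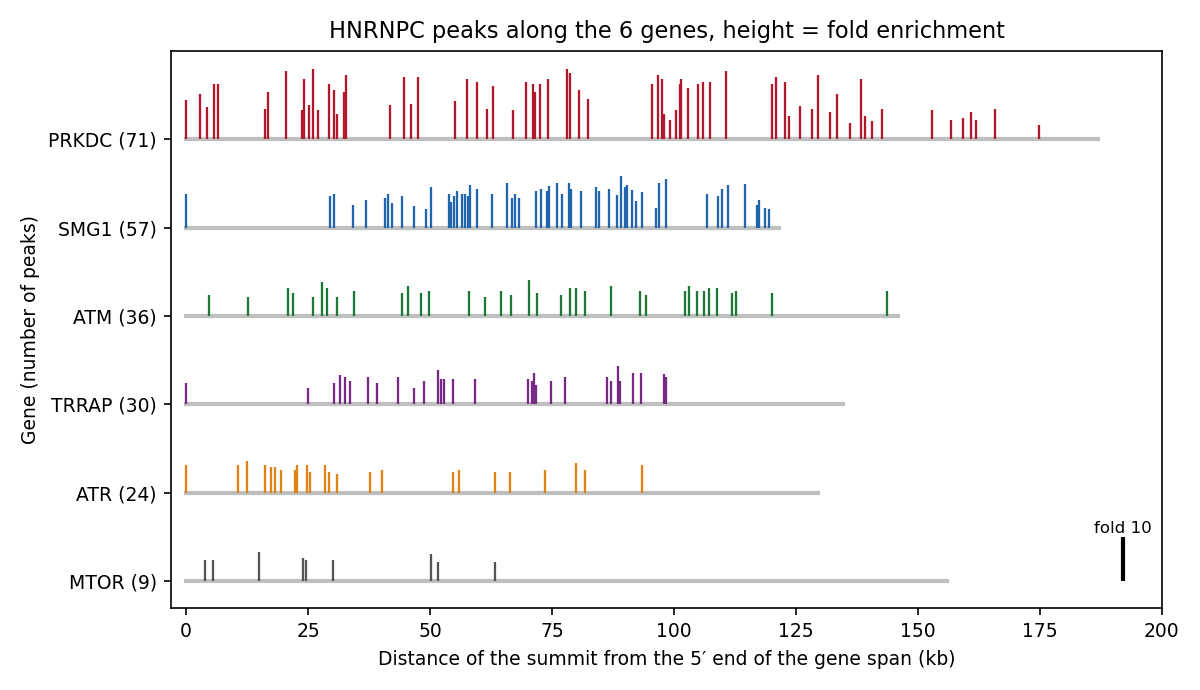
Position of each HNRNPC summit as distance from the 5′ end of the gene span in kb (horizontal axis), with 1 row per gene, the span as a grey line and the height of each tick in proportion to fold enrichment (the bar at the right marks a fold of 10). PRKDC and SMG1 have the most summits. SMG1 and TRRAP have an empty stretch behind a peak at the start, and MTOR is without peaks after 63.3 kb.

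A peak overlapped the first 50 bases of 4 of the 6 genes. That share should be read beside the background, since 42.4% of the 3075 protein-coding genes of the promoter table with a peak, and 61.9% of the 784 with 9 or more, also had a peak over their first 50 bases. PRKDC and TRRAP are not in that table, and their starts were taken from the span and a strand from background knowledge. Among the 4 genes that are in it, SMG1 and ATR had such a peak. In PRKDC this peak was 149 bp wide at 47959985 to 47960133, with a fold of 8.81 and 22 IP reads, and its summit lay 36 bases into the gene. In SMG1 it was 476 bp wide at 18925924 to 18926399, with a fold of 7.49 and 20 IP reads, and its summit lay 21 bases in. The ATR peak was 52 bp wide at 142578707 to 142578758, with a fold of 6.24 and 11 IP reads, and began 25 bases before the annotated start. The TRRAP peak was 74 bp wide at 98878524 to 98878597, with a fold of 4.79 and 8 IP reads, and began 8 bases before the start. ATM and MTOR had 0 peaks over the start, and 0 within the 250 bases before it.

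The starts of the 4 genes with an entry in the RefSeq promoter table (GRCh38.p14) are printed to set those with a start peak, SMG1 and ATR, beside those without one, ATM and MTOR. Each line gives 100 bases before and 30 bases from the annotated start in the direction of the gene, and capitals mark the bases under a peak. The SMG1 line runs over chr16:18926379-18926508 on the minus strand, the ATR line over chr3:142578704-142578833 on the minus strand, the ATM line over chr11:108222967-108223096 on the plus strand and the MTOR line over chr1:11262522-11262651 on the minus strand.
SMG1: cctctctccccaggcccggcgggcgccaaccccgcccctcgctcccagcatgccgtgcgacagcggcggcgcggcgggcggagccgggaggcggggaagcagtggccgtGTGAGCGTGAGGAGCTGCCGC
ATR: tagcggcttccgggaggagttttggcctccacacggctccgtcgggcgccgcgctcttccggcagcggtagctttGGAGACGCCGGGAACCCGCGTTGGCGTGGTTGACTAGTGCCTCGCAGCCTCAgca
ATM: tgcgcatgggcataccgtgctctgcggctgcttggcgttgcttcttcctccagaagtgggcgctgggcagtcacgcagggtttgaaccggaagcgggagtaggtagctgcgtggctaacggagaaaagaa
MTOR: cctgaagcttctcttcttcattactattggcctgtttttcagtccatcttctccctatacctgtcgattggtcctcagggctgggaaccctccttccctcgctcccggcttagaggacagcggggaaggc
In SMG1 the peak covered 21 of the printed bases, all downstream of the start, and in ATR it covered 52, of which 25 lay before the start. A run of 5 T (TTTTT), the DNA form of the U runs that HNRNPC is known for, was searched in the whole 300-base window of each gene in the direction of transcription. It occurred in MTOR and in 0 of the other 3 windows, and in 24.9% of 34943 promoter windows of the table. GGACT, a common core of methylated sites, was found in that direction in 0 of the 4 windows and in 25.2% of all windows. On either strand the shares were 39.3% for TTTTT and 44.1% for GGACT, and among the 4 genes the opposite strand added matches of GGACT in MTOR. Each window holds 250 bases before the annotated start and 50 bases from it, so most of it lies outside the annotated transcript. The MTOR match lies before the start. These counts therefore do not show whether the RNA of the 4 genes holds such runs or sites, and the sequence under the other peaks was not analysed here. Exons, introns and UTRs were likewise not resolved.

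SMG1 has pseudogene copies elsewhere on chromosome 16, and reads from near-identical stretches could be placed in either, so the values of SMG1 are uncertain. The reference lists 8 entries named for these copies. Their spans, of which those of SMG1P6 and BOLA2-SMG1P6 overlap, add up to 327.3 kb, and 2 of the 8 had peaks. SMG1P3 and SMG1P1 had 3 peaks each, 5.40 and 5.43 per 100 kb, against 46.9 per 100 kb in SMG1. Their 6 peaks had folds of 4.30 to 5.76 and 7 to 10 IP reads, with the control at its floor. SMG1P2, SMG1P4, SMG1P5, SMG1P6, SMG1P7 and the readthrough gene BOLA2-SMG1P6 had 0 peaks. How reads with several matches were handled is not given in the sources used here, and the part of shared reads in these values was not tested.

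Partners of the 6 kinases were examined as 80 genes in 7 lists, of which 24 had a peak (30%, 95% exact Clopper-Pearson interval 20.3 to 41.3%), beside 18.4% of all protein-coding genes. The lists were chosen with earlier results of these data known and were not matched to all genes for span or expression. The interval covers counting error only, and the share was not tested against that of all genes. Of 9 genes of end joining, the pathway of PRKDC, 0 had a peak. With so few genes, this was not tested against the 18.4% of all protein-coding genes. XRCC5 and XRCC6, which encode the Ku subunits that bring DNA-PK to broken ends, were among them, as was XRCC4 with its span of 296.9 kb. Of 12 genes of nonsense-mediated decay, 2 had a peak. They were UPF2, which binds UPF1, with 5 peaks and a highest fold of 8.39, and CASC3, of the exon junction complex, with 4 and 9.26. UPF1, the substrate of SMG1, had 0.

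Of 10 genes that signal breaks with ATM, 6 had a peak. NBN, a subunit of the complex that recruits ATM, had 12 peaks with a highest fold of 11.1, and the ubiquitin ligase gene RNF168 had 7 with 12.1. TP53BP1 had 5 peaks, BRCA1 had 3, and RAD50 and CHEK2 had 1 each, with highest folds between 4.79 and 6.73. Of 12 genes of the ATR response, 4 had a peak. CLSPN, which encodes the adaptor claspin needed to activate the kinase CHEK1, had 22 peaks, 44.2 per 100 kb, with a highest fold of 13.0. That density, over a span of 49.8 kb, is close to the 46.9 of SMG1 and above the 18.5 of ATR, which are longer genes. USP22, of the TRRAP list, had 45.6 per 100 kb over 43.8 kb. TOPBP1, an activator of ATR, had 15 peaks with a highest fold of 8.67. HUS1 had 2 and TIMELESS had 1, whereas ATRIP, the obligate partner of ATR, and CHEK1 had 0.

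Among 11 genes of the MTOR complexes and their regulators, 4 had a peak, beside the 9 peaks of MTOR itself. RICTOR, the defining subunit of mTOR complex 2, had 10 peaks with a highest fold of 7.22, RHEB and TSC1 had 2 each and MAPKAP1 had 1. RPTOR, the defining subunit of mTOR complex 1, had 0 over a span of 421.5 kb. Of 19 genes of the acetyltransferase complexes around TRRAP, 7 had a peak. USP22, the deubiquitinase of the SAGA complex, had 20 peaks and the highest fold among all partners, 16.0, with 58 IP reads at that summit beside 1 control read. ATXN7 had 9 peaks, MBTD1 had 5, KAT2B had 3, EP400 and SUPT20H had 2 each and EPC2 had 1. Of 7 genes of the chaperone system that folds these kinases, TTI2 alone had a peak, with a fold of 4.996.

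**Figure D5:**
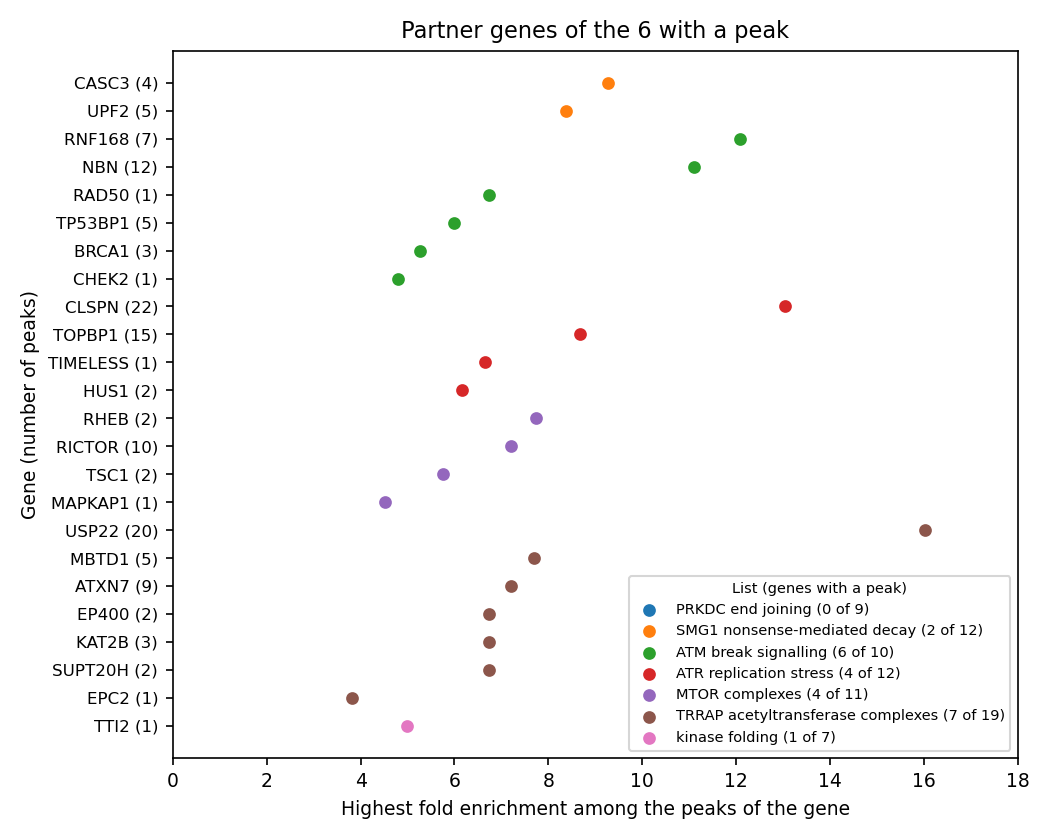
Highest fold enrichment (horizontal axis) of the 24 partner genes with a peak, 1 point per gene, with the number of peaks after the gene name and the list of each gene by colour. USP22 reaches 16.0, CLSPN 13.0, RNF168 12.1 and NBN 11.1, and no point belongs to the end-joining list of PRKDC.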

How the data were processed

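Per the submitters' processing notes, the tools were HISAT2, MACS2 and bedtools on build hg38, and their versions and settings are not given in the sources used here. The deposited peak list of the IP library gives, for each of 23148 peaks, a position, a summit, a score (the −log10 q value times 10, rounded down), a fold enrichment (a ratio, per the file layout the authors used), and the −log10 p and −log10 q. Library depth is unknown because the list gives only peaks, and no values of the input library's own were used. The 37 peaks on other contigs were left out.

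Summits were set against gene spans of RefSeq GRCh38 patch 14 (59679 genes), without exons, and each summit counted for every span that held it. IP reads and control levels were inferred from fold and p, trying up to 400 reads. The procedure was tested on data simulated from the same formulas, so it was not tested whether these formulas hold for the deposited list. The simulated read numbers did not reach down to the lowest ones inferred here. The members and lists were chosen with earlier results of these data known. The rule for naming took the 6 genes, their highest, widest, first and last peaks, SMG1 copies, overlapping genes and listed partners with a peak, and some of these, and of the partners without a peak, are named in the text. A further gene of the planned lists was left out of the lists and is not reported here. Tests between samples were not possible with 1 library per group. The planned search at the summits was made at gene starts only, from RefSeq promoter sequences. Alternatives were a stricter q, other rules of overlap, merged neighbours, wider peaks, a control level of 1 or more, unshared summits, SMG1 with its copies, and a wider start window, the last chosen after seeing the data. Scripts ran in Python 3.11.15 and used scipy 1.17.1 for intervals, pandas 2.3.3 and numpy 2.4.6 for tables and matplotlib 3.10.9 for figures.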

Additional observations from a re-analysis of the deposited data

How the results depend on the processing

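When only summits with 1 or more control reads were kept, the 6 genes had 32 peaks in place of 227. PRKDC had 23, SMG1 had 9 and each of the other 4 had 0, the median of IP reads was 23 in place of 14, 7 summits in place of 121 lay in the first 50% of a span, and 10 partner genes in place of 24 had a peak. No peak of the list with 1 or more control reads had fewer than 14 IP reads, so this setting leaves out summits with few reads. Its lower counts and higher median follow in part from that limit. With peaks of 100 bp or wider, 80 summits lay in the first 50%, ATM had 19 peaks and MTOR 2. Merging peaks of a gene within 1000 bp left 28 in SMG1 and 154 in all, and merging within 100 bp changed no number of peaks. Leaving out summits shared with another gene left 23 in ATM. A q of 0.001 or less kept 208 of the 227 peaks, and both other rules of overlap gave 227. SMG1 with its copies came to 63 peaks in place of 57. The wider window at the gene start, chosen after seeing the data, gave 4 genes again. All 227 peaks had 1 solution for their reads, so keeping only such peaks changed nothing. Of all 156 values recomputed, 129 stayed within 1.5 times of the count, or within the quartiles of fold, and 27 did not. The unknown depth and the single library limit every value. No paired analysis was possible because each group has 1 library.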
